A study of Mus musculus with 6 samples.

Results

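The genes described here encode matrix proteins other than collagens, the enzymes that process the matrix, the TGF-beta ligands, and markers of fibroblasts and myofibroblasts in mouse heart. They were chosen by gene symbol, as 48 names in 9 roles. The deposited table lists 45 of them among 16229 genes, and 44 were tested among 12981 genes; Cthrc1 lay below the filter on low values, and Ogn, Timp1 and Timp3 were not analysed here. Resident cardiac fibroblasts carry the receptor Pdgfra and the transcription factor Tcf21, and they make most of the interstitial matrix of the heart. After injury, active TGF-beta acts through SMAD transcription factors on these cells, which take on contractile proteins such as alpha smooth muscle actin (Acta2) and secrete fibronectin and periostin as they become myofibroblasts. Small leucine-rich proteoglycans (Dcn, Bgn, Lum, Fmod) bind collagen fibrils and can also bind TGF-beta.

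RNA-seq of poly-A RNA from whole heart tissue was compared in 3 groups of male wild-type C57BL/6 mice aged 8 to 10 weeks, with 2 libraries in each group. Mice of the rivaroxaban group (replicates 14 and 15) had 3 mg/kg of that factor Xa inhibitor for 7 days, mice of the dabigatran group (replicates 10 and 12) had 10 mg/kg of that thrombin (factor IIa) inhibitor for 7 days, and the control group (replicates 8 and 9) is labelled untreated. The series concerns ischemia and reperfusion injury, and the protocol says that the tissue held the infarct and its surroundings; surgery is not mentioned for the untreated mice, nor the time between injury and sampling for any group. Of 8 listed markers of an acute infarct and neutrophils, 6 were listed and 1 passed the filter, and those 6 summed to 3.63 to 4.62 CPM in rivaroxaban, 2.91 to 4.42 CPM in dabigatran and 3.40 to 3.51 CPM in untreated libraries. Markers of the heart's own cells were high: 8 cardiomyocyte markers summed to at least 101000 CPM in every library. Nothing in the labels says that libraries of 1 group are from different mice, so a p-value here measures only the spread between these samples, which may be technical. Libraries held 27176892 to 43798222 reads in listed genes, and the median tested member had 1447 to 2359 reads per library. Whole-heart RNA cannot tell fewer cells of a type apart from less RNA per cell.

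One gene among the 44 passed the test against untreated hearts, and it did so under both drugs: Fmod. Fibromodulin is a small leucine-rich proteoglycan that binds collagen fibrils and modifies their assembly. Fmod (ENSMUSG00000041559) spans chr1:134037254-134048277 on the plus strand of mm10. The 250 bases upstream of its start (chr1:134037004-134037253, plus strand, RefSeq on GRCm38.p6, the assembly named mm10) are shown because this gene carries the only call; capitals mark the core SMAD box CAGAC or its reverse complement GTCTG.
Fmod: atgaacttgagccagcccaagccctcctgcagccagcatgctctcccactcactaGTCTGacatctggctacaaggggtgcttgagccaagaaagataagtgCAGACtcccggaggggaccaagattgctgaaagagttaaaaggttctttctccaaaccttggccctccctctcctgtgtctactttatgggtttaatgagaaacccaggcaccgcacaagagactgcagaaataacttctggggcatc
The box occurred at positions 56 and 103 from the 5′ end of this window. It is short, and 42.2% of 32851 RefSeq mouse promoter windows of the same length held at least 1 copy on either strand. Of the 45 listed members, 27 matched by symbol, with 33 windows, and 18 of these windows held a SMAD box. The glucocorticoid receptor half-site AGAACA, searched as AGAACA and TGTTCT, occurred in 5 of the 33 windows and 16.1% of all windows. The AP-1 site TGANTCA occurred in 0 of the 33 windows and 6.75% of all windows, and the Fmod window held neither it nor AGAACA. These are matches of letters, not measured binding.

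Levels per length ran over a wide range. In CPM per kilobase of annotated exon, averaged over all 6 libraries, Gsn stood at 565. It encodes the actin-severing protein gelsolin, which cardiomyocytes also make. Sparc, a collagen-binding matricellular protein, followed at 169, Serpinh1, the collagen chaperone HSP47, at 133, Mgp, an inhibitor of calcification, at 114, and Dcn, the proteoglycan decorin, at 100. Acta2, which vascular smooth muscle also expresses, came next at 91.3, and Bgn, the proteoglycan biglycan, at 57.6. Some glycoproteins of the same role as Sparc were lower, with Postn (periostin) at 6.53, Fn1 (fibronectin) at 5.11 and Cilp, a matrix protein made by cardiac fibroblasts, at 4.77 CPM per kilobase. The exon length joins all annotated exons of a gene, so it can exceed that of the transcript in use and lower this level. At the low end were Fmod at 2.71, Thbs1 at 1.31, Lox at 0.999, Ltbp2 at 0.77 and Tnc, the glycoprotein tenascin C of injured heart, at 0.176 CPM per kilobase. Cthrc1, which marks activated cardiac fibroblasts after infarction in mice, stood at 0.187 CPM per kilobase on 4 to 15 reads a library, too few to test.

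**Figure D1:**
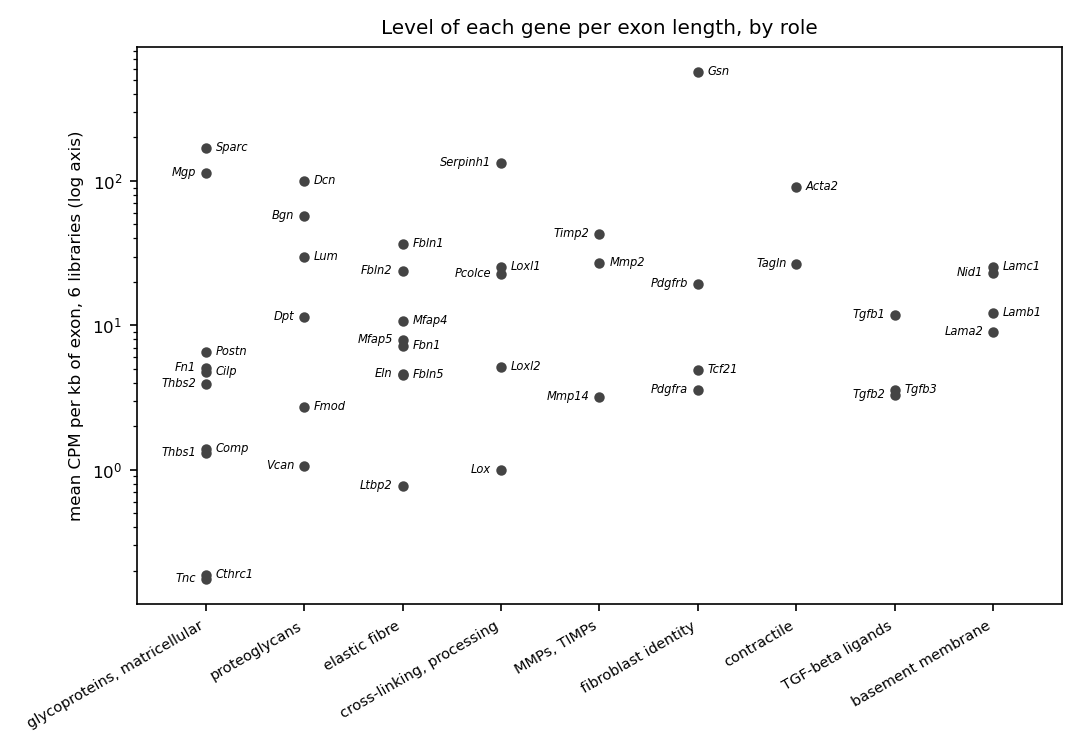
Level of each listed gene in CPM per kilobase of exon on a log axis, with genes set out by role on the horizontal axis; each point is 1 gene, its mean over all 6 libraries. Levels span from 0.176 for Tnc to 565 for Gsn, and Fmod, at 2.71, lies in the lower part of the proteoglycans.

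Under rivaroxaban, Fmod fell and no other member passed the test. This is 1 of 44 members, or 2.27%, against a background of 2.46% of all genes (1.47% higher and 0.986% lower), so the share of members called lay near that of all genes. The median log2 difference over the 44 members was -0.00169 against 0.00505 over all genes, and the median size of a difference was 0.0823 against 0.101. Rivaroxaban and untreated values did not overlap for 9 members that were higher (20.5% of members, against 26.1% of all genes) and 6 that were lower (13.6% against 24.5%), together 34.1% of members against 50.6% of all genes. At an unadjusted p under 0.05, limma gave 6 members, 13.6% against 17.2% of all genes. The 95% interval of the difference lay within 0.5 log2 units on either side of 0 for 33 of 44 members (75%, against 75.4% of all genes).

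Fmod had 2.92 and 2.89 log2 CPM in rivaroxaban hearts, against 3.64 and 3.60 in untreated hearts. These came from 274 and 215 reads under rivaroxaban and from 353 and 391 reads in untreated hearts. Both treated libraries lay below both untreated ones, with no overlap. The mean fell to 2.91 ± 0.02 in rivaroxaban hearts, against 3.62 ± 0.02 in untreated hearts (SD, n = 2 each), a log2 difference of -0.71 (SE 0.12, 95% interval -0.98 to -0.45) or 0.61 of the untreated level, with a limma adjusted p of 0.013. The call was lost when any 1 of the 4 libraries compared was left out, with adjusted p between 0.0554 and 0.118, and without the mean-variance trend, at 0.0957, while the difference stayed between -0.73 and -0.65 over all 13 alternatives.

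The members next to Fmod in rank were Cilp, Thbs1 and Tagln, and none passed. Cilp had 4.14 and 3.96 log2 CPM under rivaroxaban and 4.62 and 4.35 in untreated hearts, a difference of -0.44 (SE 0.11, adjusted p = 0.0743 by limma). Thbs1, the matricellular protein thrombospondin 1 and an activator of latent TGF-beta, had 3.32 and 3.12 log2 CPM under rivaroxaban and 2.82 and 2.36 in untreated hearts, a difference of 0.63 (SE 0.16, adjusted p = 0.0767). Neither gene's groups overlapped, but both were picked by low p, and 50.6% of all genes did not overlap either. The untreated replicates of Thbs1 lay 0.46 log2 units apart. The Thbs1 difference was 0.87 without untreated replicate 8 and 0.4 without untreated replicate 9. It was 0.53 without rivaroxaban replicate 14 and 0.73 without rivaroxaban replicate 15. Tagln (transgelin), an actin-binding protein of smooth muscle and myofibroblasts, had 5.65 and 5.42 log2 CPM under rivaroxaban and 5.91 and 5.79 in untreated hearts (-0.31, SE 0.09, adjusted p = 0.119). The antisense gene Gm48529 overlaps 62.4% of the annotated exon bases of Tagln, and with strand use in counting not given in the sources used here their reads may be mixed. Its partner in the myofibroblast role, Acta2, had 7.48 and 7.70 log2 CPM under rivaroxaban and 7.68 and 7.52 in untreated hearts, which overlap (-0.01, 95% interval -0.20 to 0.18).

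Under dabigatran, Fmod again fell and was again the only member to pass, 1 of 44 (2.27%) against 1.88% of all genes (1.38% higher and 0.501% lower). The median over members was -0.0366 against 0.00259 over all genes. It was -0.11 without dabigatran replicate 12 and also without untreated replicate 9. Without dabigatran replicate 10 it was 0.01, and without untreated replicate 8 it was 0.0. Values did not overlap for 7 members that were higher (15.9% of members, against 22.8% of all genes) and 14 that were lower (31.8% against 20.8%), together 47.7% of members against 43.6% of all genes. At an unadjusted p under 0.05 there were 8 members, 18.2% against 14.7% of all genes. The 95% interval lay within 0.5 log2 units of 0 for 37 of 44 members (84.1%, against 76.0% of all genes). This comparison used the same untreated libraries as the rivaroxaban one, so the pair of Fmod calls are not independent of each other.

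Fmod had 2.71 and 3.00 log2 CPM in dabigatran hearts, on 174 and 347 reads, against 3.64 and 3.60 in untreated hearts. Both dabigatran libraries lay below both untreated ones, and they differed more from each other than the rivaroxaban or the untreated pair. The mean was 2.86 ± 0.20 under dabigatran and 3.62 ± 0.02 in untreated hearts (SD, n = 2 each), a log2 difference of -0.76 (SE 0.12, 95% interval -1.03 to -0.50) or 0.59 of the untreated level, with a limma adjusted p of 0.0115. The call was lost without dabigatran replicate 10 (-0.62, adjusted p 0.0725), without untreated replicate 8 (adjusted p 0.0823) or 9 (adjusted p 0.0519), and without the mean-variance trend (adjusted p 0.141).

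Lum, Eln and Lox ranked next under dabigatran and did not pass. Lum, the corneal and cardiac proteoglycan lumican, had 5.92 and 6.13 log2 CPM under dabigatran and 6.33 and 6.26 in untreated hearts (-0.27, SE 0.08, adjusted p = 0.117 by limma). The Lum difference was -0.38 without dabigatran replicate 12 and -0.17 without dabigatran replicate 10. Without untreated replicates 8 and 9 in turn it was -0.24 and -0.31. Eln, the precursor of elastin, had 5.23 and 5.62 log2 CPM under dabigatran and 4.95 and 5.02 in untreated hearts (0.44, SE 0.13, adjusted p = 0.128). Lox, the lysyl oxidase that starts the cross-linking of collagen and elastin, had 2.48 and 2.57 log2 CPM under dabigatran and 2.15 and 1.97 in untreated hearts (0.46, SE 0.14, adjusted p = 0.146). None of these 3 genes overlapped between the groups, but they were picked by low p, and 43.6% of all genes did not overlap either. The dabigatran replicates of Eln lay 0.39 log2 units apart. Under rivaroxaban the same 3 genes differed from untreated by -0.08 (Lum), 0.24 (Eln) and 0.13 (Lox). The genes that ranked behind Fmod under rivaroxaban differed under dabigatran by -0.03 (Cilp), 0.50 (Thbs1, SE 0.16, adjusted p = 0.169 by limma) and -0.07 (Tagln), and Acta2 by 0.13.

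**Figure D2:**
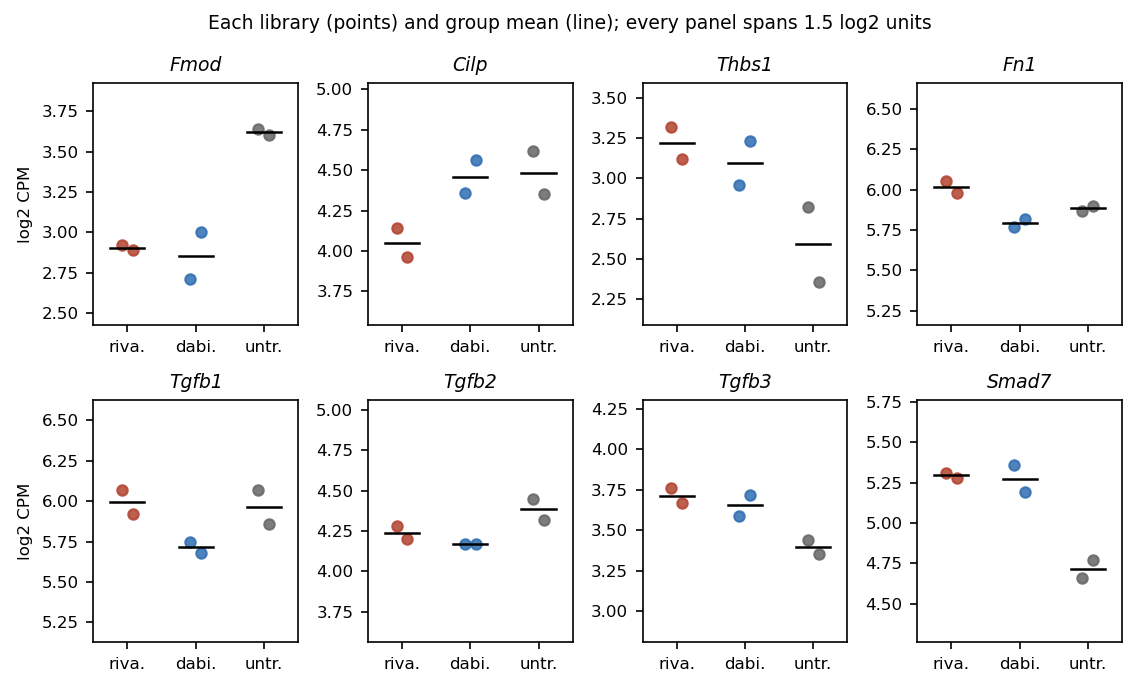
Log2 CPM of 8 genes in each library, in the order rivaroxaban, dabigatran, untreated, with a line at each group's mean. For Fmod all 4 treated libraries lie between 2.71 and 3.00, below the untreated ones at 3.60 and 3.64; for Cilp only the rivaroxaban libraries lie below untreated, and for Smad7 all 4 treated libraries lie above.

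**Figure D3:**
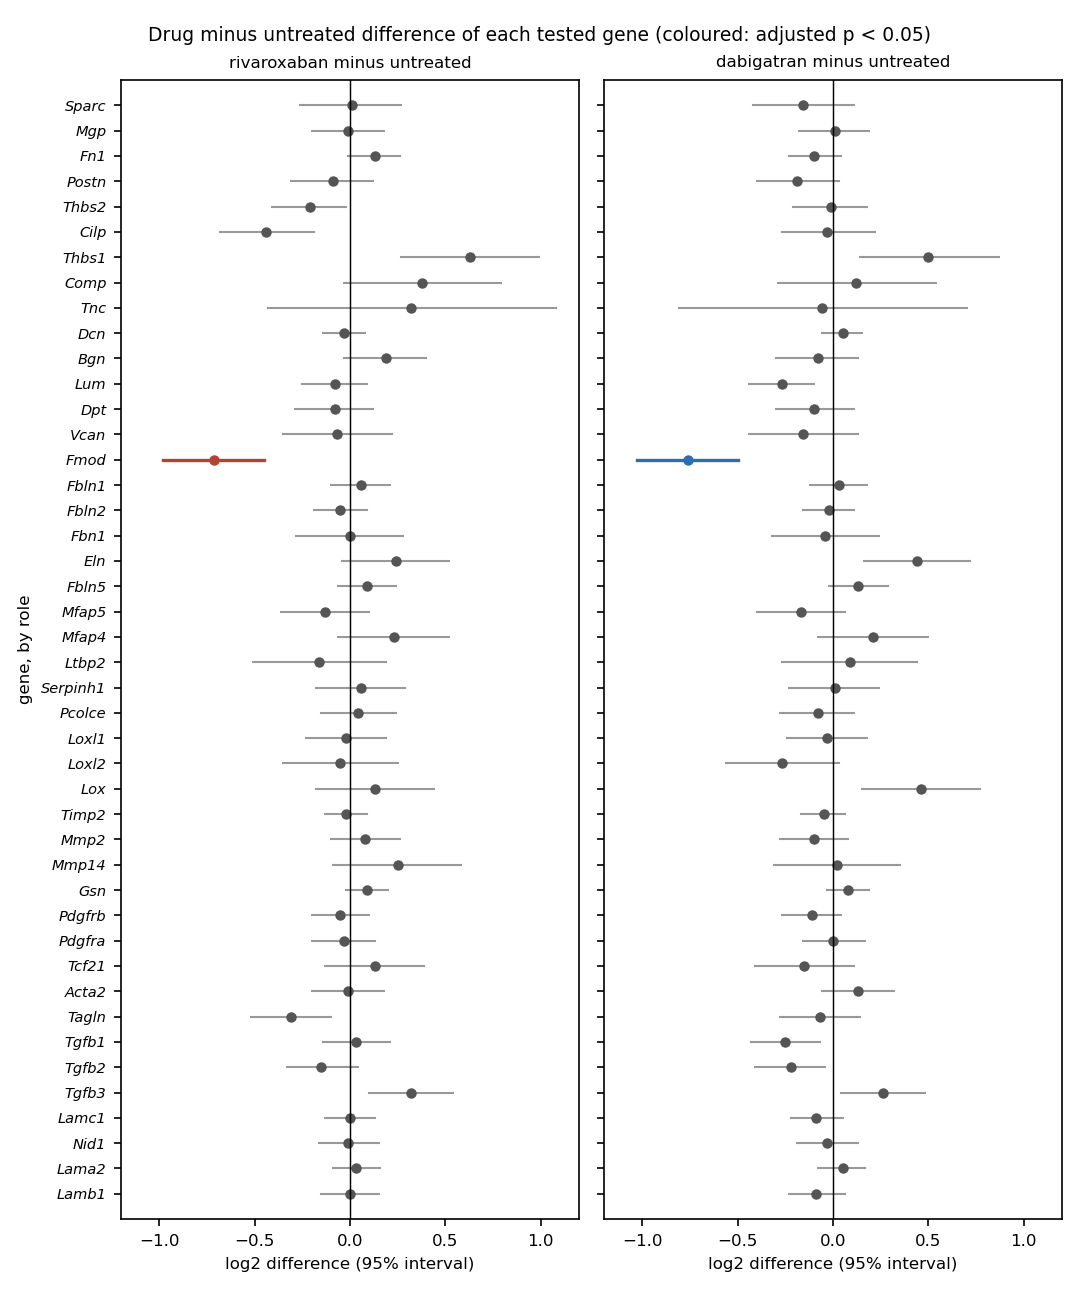
Log2 difference from untreated with its 95% interval for each tested member, by role, with rivaroxaban in the left panel and dabigatran in the right. Coloured marks are past the adjusted threshold: Fmod is the only one, at -0.71 under rivaroxaban and -0.76 under dabigatran, while most intervals cover 0.

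No other proteoglycan passed under either drug. Dcn differed by -0.03 under rivaroxaban (95% interval -0.14 to 0.08) and 0.05 under dabigatran (-0.06 to 0.15), the narrowest intervals of this role. Bgn (biglycan) had 8.64 and 8.56 log2 CPM under rivaroxaban, 8.15 and 8.50 under dabigatran, and 8.50 and 8.32 in untreated hearts. Its rivaroxaban libraries lay above the untreated ones (0.19, adjusted p = 0.354 by limma), and its dabigatran libraries overlapped them (-0.08). Vcan, the large proteoglycan versican of provisional matrix, differed by -0.07 and -0.16 under rivaroxaban and dabigatran in that order. Dpt, dermatopontin of dermal and cardiac matrix, was listed in this role but is not itself a proteoglycan. It differed by -0.08 and -0.10 in the same order.

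Among glycoproteins, Postn had 5.98 and 5.66 log2 CPM under rivaroxaban, 5.72 and 5.74 under dabigatran and 5.99 and 5.84 in untreated hearts. The difference was -0.09 under rivaroxaban, where the groups overlapped, and -0.19 under dabigatran, where they did not (adjusted p = 0.406). Fn1, which bridges cells and collagen, differed by 0.13 and -0.10, Sparc by 0.01 and -0.16, and Mgp by -0.01 and 0.01, under rivaroxaban and dabigatran in that order. Thbs2, a relative of Thbs1, differed by -0.21 under rivaroxaban (adjusted p = 0.255) and -0.01 under dabigatran. Comp, a thrombospondin of cartilage and tendon matrix, had 2.19 and 2.32 log2 CPM under rivaroxaban, 2.18 and 1.82 under dabigatran and 1.67 and 2.08 in untreated hearts (0.38 and 0.12, SE 0.19). Tnc had 27 to 65 reads a library, and its interval under rivaroxaban, -0.43 to 1.08, spans both signs; its untreated replicates, on 52 and 27 reads, lay 1.07 log2 units apart.

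In the elastic fibre role, the microfibril gene Fbn1 (fibrillin 1) differed by 0.00 under rivaroxaban and -0.04 under dabigatran (95% intervals -0.28 to 0.28 and -0.32 to 0.24). The fibulins, which link microfibrils, elastin and basement membranes, differed by 0.06 (Fbln1), -0.05 (Fbln2) and 0.09 (Fbln5) under rivaroxaban and by 0.03, -0.02 and 0.13 under dabigatran. Fbln5, which helps elastin assemble, did not overlap with untreated under either drug. The microfibril-associated Mfap4 and Mfap5 differed by 0.23 and -0.13 under rivaroxaban and 0.21 and -0.17 under dabigatran, and Ltbp2 by -0.16 and 0.09 under rivaroxaban and dabigatran in that order. No member of the role passed under either drug.

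Cross-linking and processing enzymes also gave no call. Under rivaroxaban the 5 tested ones differed by -0.05 to 0.13, and under dabigatran by -0.27 (Loxl2, lysyl oxidase-like 2, adjusted p = 0.393 by limma) to 0.46 (Lox). Loxl1, the lysyl oxidase relative that acts on elastin, differed by -0.02 and -0.03, Serpinh1 by 0.06 and 0.01, and Pcolce, an enhancer of procollagen C-proteinase, by 0.04 and -0.08. The gelatinase Mmp2 differed by 0.08 and -0.10, its membrane-bound activator Mmp14 by 0.25 and 0.02, and the inhibitor Timp2 by -0.02 and -0.05, each under rivaroxaban and dabigatran in that order. In the fibroblast identity role, Pdgfra had 5.16 and 5.12 log2 CPM under rivaroxaban, 5.09 and 5.27 under dabigatran and 5.18 and 5.18 in untreated hearts. Its 95% intervals were -0.20 to 0.13 under rivaroxaban and -0.16 to 0.17 under dabigatran. Tcf21 had 3.77 and 3.57 log2 CPM under rivaroxaban, 3.29 and 3.48 under dabigatran and 3.63 and 3.45 in untreated hearts, with overlap against untreated for both drugs. Pdgfrb, a receptor of pericytes and fibroblasts, differed by -0.05 and -0.11, and Gsn by 0.09 and 0.08, under rivaroxaban and dabigatran in that order. None of the basement membrane genes passed: Nid1 (nidogen 1) and the laminin chains Lama2, Lamb1 and Lamc1 had differences of -0.01 to 0.03 under rivaroxaban and -0.09 to 0.05 under dabigatran, with SE of 0.06 to 0.07.

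**Figure D4:**
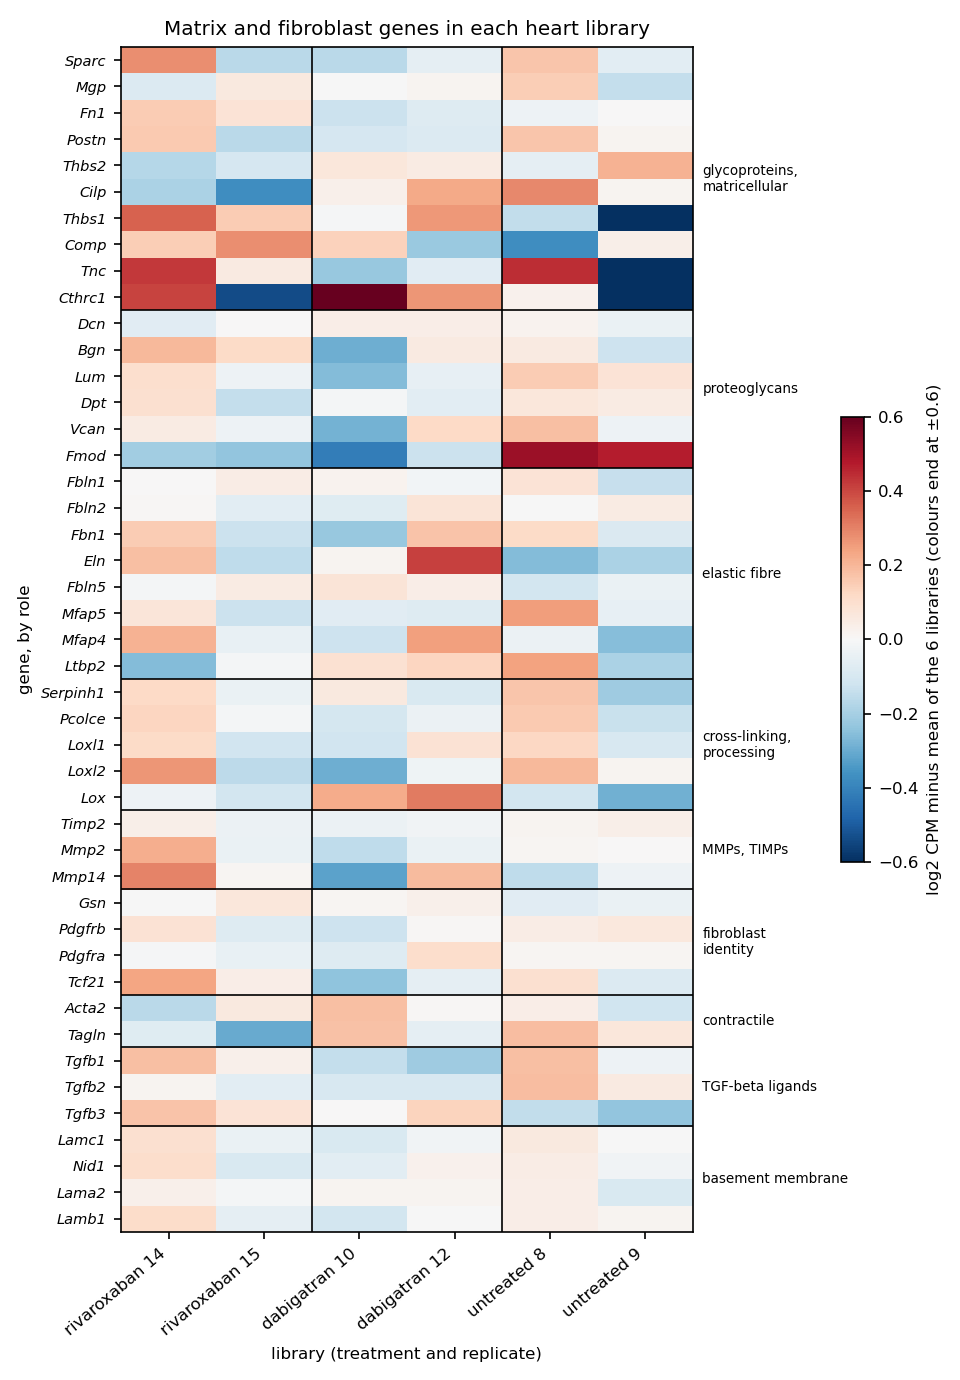
Heat map of log2 CPM minus the gene's mean over the 6 libraries, genes in rows by role and libraries in columns. Fmod is low in all 4 treated libraries. Many rows are high in rivaroxaban replicate 14 and untreated replicate 8. Many are low in rivaroxaban replicate 15, dabigatran replicate 10 and untreated replicate 9.

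None of the 3 TGF-beta ligands passed, and their differences had unlike signs. Tgfb1 had 6.07 and 5.92 log2 CPM under rivaroxaban, 5.75 and 5.68 under dabigatran and 6.07 and 5.86 in untreated hearts. Its dabigatran libraries lay below all others (-0.25, SE 0.08, adjusted p = 0.169 by limma), and its rivaroxaban libraries overlapped the untreated ones (0.03). Tgfb2 had 4.28 and 4.20 log2 CPM under rivaroxaban, 4.17 and 4.17 under dabigatran and 4.45 and 4.32 in untreated hearts, and Tgfb3 had 3.76 and 3.67, 3.59 and 3.72, and 3.44 and 3.35 in the same order. Both groups of treated libraries lay below untreated for Tgfb2 (-0.15 and -0.22) and above it for Tgfb3 (0.32 and 0.26), and none of these differences passed, with adjusted p from 0.123 to 0.406.

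Other genes of the same pathways, in 6 lists of 129 names (2 genes under both an old and a new symbol) with 114 tested, gave 5 higher and 1 lower call under rivaroxaban and 5 higher and 2 lower under dabigatran, with medians of 0.06 and -0.04. The lists were chosen with earlier results of these data known, so their shares of calls cannot show an excess over all genes. The shares higher and lower were 4.39% and 0.877% under rivaroxaban, against 1.47% and 0.986% of all genes, and 4.39% and 1.75% under dabigatran, against 1.38% and 0.501%. These counts turned on the settings: with 1 library left out they were 2 to 6 higher and 1 lower under rivaroxaban and 1 to 5 higher and 0 to 3 lower under dabigatran. For dabigatran they were 2 and 1 with the 4 compared libraries alone and also by voom, and all were 0 without the mean-variance trend. Of 21 TGF-beta receptor and signalling genes, 3 rose under each drug. Smad7, the SMAD that blocks the TGF-beta receptor, had 5.31 and 5.28 log2 CPM under rivaroxaban, 5.36 and 5.19 under dabigatran and 4.66 and 4.77 in untreated hearts. It rose by 0.58 (adjusted p = 0.00325 by limma) under rivaroxaban and by 0.56 (adjusted p = 0.00729) under dabigatran, and the call held in 12 and 11 of 13 alternatives. Skil, the SMAD corepressor SnoN, rose by 0.41 (adjusted p = 0.0226) and 0.37 (adjusted p = 0.0388), and Eng, the co-receptor endoglin of endothelium, by 0.26 (adjusted p = 0.0278) and 0.25 (adjusted p = 0.0397). The calls of Skil and Eng each held in 8 of 13 alternatives under rivaroxaban and in 4 of 13 under dabigatran. The ligand-binding receptor Tgfbr2 differed by -0.05 and -0.04, and the mediator Smad3 by -0.06 and 0.10, without passing.

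Among 25 tested matrix glycoprotein and elastic fibre genes outside the members, Ctgf rose and Efemp1 fell under both drugs. Ctgf, a matricellular protein and target of TGF-beta and YAP, rose by 0.60 (adjusted p = 0.00878 by limma) under rivaroxaban and 0.45 (adjusted p = 0.041) under dabigatran, and the call held in 10 and 5 of 13 alternatives. Its dabigatran difference was 0.30 without untreated replicate 8. Efemp1, the fibulin-family glycoprotein fibulin 3, had 3.84 and 3.89 log2 CPM under rivaroxaban, 4.23 and 4.15 under dabigatran and 4.69 and 4.58 in untreated hearts. It fell by 0.77 (adjusted p = 0.000946) and by 0.44 (adjusted p = 0.027, held in 8 of 13 alternatives). Of 27 enzymes and inhibitors of the matrix, Adamts1, a metalloproteinase that cleaves versican, rose by 0.60 (adjusted p = 0.00122) and 0.75 (adjusted p = 0.000421), and the call held in 12 of 13 alternatives under each drug. Of 24 other fibroblast genes none passed under rivaroxaban, and under dabigatran only Cygb, the fibroblast globin cytoglobin, fell (-0.30, adjusted p = 0.0443, held in 4 of 13 alternatives). None of 13 other basement membrane genes or 4 PDGF ligands passed under either drug.

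Markers of mesothelial cells, which line the surface of the heart, were lower beside Fmod and Efemp1. All 10 listed were tested. Under rivaroxaban 8 fell (Msln, Upk3b, Upk1b, Lrrn4, Krt18, Krt19, Gpm6a and Nkain4) and Wt1 rose, and under dabigatran Msln, Upk3b and Gpm6a fell and Wt1 rose, with medians over the list of -1.11 and -0.65. Msln, the surface protein mesothelin, fell by 1.23 (adjusted p = 0.000814 by limma) and by 0.74 (adjusted p = 0.0163), and the call held in 12 and 9 of 13 alternatives. Other calls turned more on the settings: under dabigatran Upk3b held in 10, Wt1 in 8 and Gpm6a in 6 of 13 alternatives, and under rivaroxaban Wt1 and Gpm6a held in 8 and Lrrn4 in 9 of 13, and Krt18 and Upk1b in 8 of the 12 that tested them. The Lrrn4 difference, -0.99, was -0.63 without rivaroxaban replicate 14. The list summed to 51.3 to 60.6 CPM in rivaroxaban, 66.6 to 68.5 CPM in dabigatran and 95 to 99.5 CPM in untreated libraries. Their part in the Fmod and Efemp1 results was not tested. Valve and tendon tissue, in which Fmod is made, had 6 listed markers, of which 5 were tested and none passed. The 6 summed to 44.9 CPM in both rivaroxaban, 48 to 52.3 CPM in dabigatran and 45.1 to 50.7 CPM in untreated libraries. Of 15 smooth muscle and pericyte markers, only Myh11, the smooth muscle myosin heavy chain, passed, lower under rivaroxaban (-0.34, adjusted p = 0.0416 by limma), beside the lower Tagln values. The call held in 8 of 13 alternatives, and without rivaroxaban replicate 15 the difference was -0.23 with an adjusted p of 0.376. The list summed to 2290 to 2350 CPM in rivaroxaban, 2300 to 2320 CPM in dabigatran and 2270 to 2310 CPM in untreated libraries. Their part in the Tagln values was not tested.

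Between the anticoagulants, given at different doses, 0 of 44 members passed with limma, against 0.077% of all genes. With voom on recovered reads 0 members passed, and 1 gene passed over all genes tested. At an unadjusted p under 0.05 there were 10 members, 22.7% against 8.43% of all genes. Values did not overlap for 9 members higher under rivaroxaban (20.5% of members, against 19.3% of all genes) and 6 lower (13.6% against 20.4%), together 34.1% against 39.7% of all genes. The median difference was 0.0468 over members and 0.00112 over all genes. The median over members turned on single libraries. Without rivaroxaban replicates 14 and 15 in turn it was -0.01 and 0.13. Without dabigatran replicates 10 and 12 in turn it was 0.0 and 0.09. The 95% interval lay within 0.5 log2 units of 0 for 36 of 44 members (81.8%, against 79.0%). For Fmod the difference was 0.05 (95% interval -0.22 to 0.32).

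Cilp, Fn1, Tgfb1 and Bgn had the lowest p in this comparison. Cilp had 4.14 and 3.96 log2 CPM under rivaroxaban and 4.36 and 4.56 under dabigatran, without overlap (-0.41, 95% interval -0.65 to -0.16, adjusted p = 0.317 by limma). Fn1 had 6.05 and 5.98 log2 CPM under rivaroxaban and 5.77 and 5.82 under dabigatran (0.22, 95% interval 0.09 to 0.36, adjusted p = 0.317). Its untreated libraries, at 5.87 and 5.90, lay between the drug groups and overlapped neither. Tgfb1 differed by 0.28 (95% interval 0.10 to 0.46, adjusted p = 0.336) and Bgn by 0.27 (0.06 to 0.49, adjusted p = 0.473), both without overlap. These genes were picked by low p, and 39.7% of all genes did not overlap either.

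The libraries of a group differed across many members at once. Rivaroxaban replicate 14 was above replicate 15 in 35 of 44 members (79.5%, against 50.9% of all genes), with a median difference of 0.143. Dabigatran replicate 10 was above replicate 12 in 10 of 44 (22.7%, against 49.7%), with a median of -0.0899, and untreated replicate 8 was above replicate 9 in 34 of 44 (77.3%, against 51.4%), with a median of 0.129. Each of these medians is larger in size than the median member difference in any of the 3 comparisons between groups. Macrophage and leukocyte markers ran the same way, with 11 of 11, 2 of 11 and 8 of 11 higher in the same replicates, and so did the 24 other fibroblast genes, with 19, 7 and 17. Endothelial markers had 8, 1 and 4 of 10 higher in the same replicates. Smooth muscle and pericyte markers had 14, 11 and 7 of 15, and TGF-beta receptor and signalling genes 11, 9 and 10 of 21. The macrophage list summed to 572 to 666 CPM in rivaroxaban, 605 to 642 CPM in dabigatran and 564 to 614 CPM in untreated libraries, and 0 of 8, 3 of 8 and 5 of 8 cardiomyocyte markers were higher in those replicates. The part of these cell types in the members' spread was not tested.

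**Figure D5:**
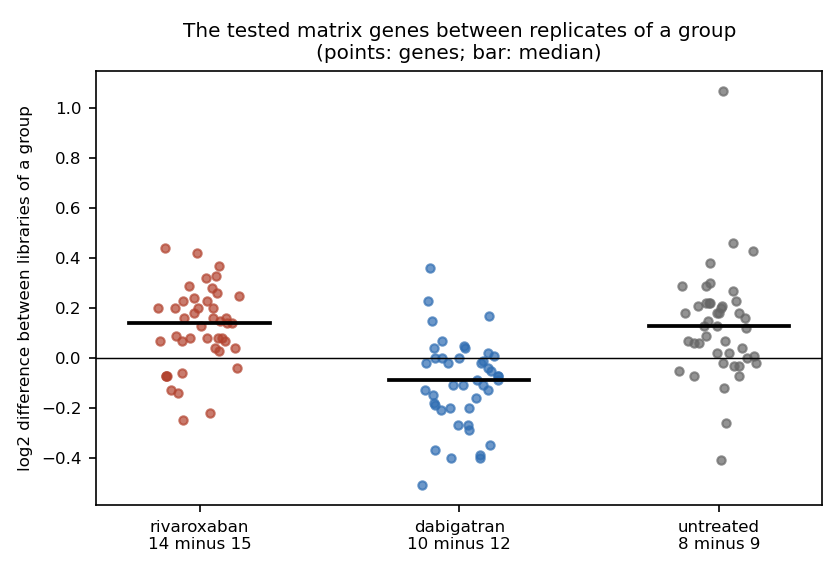
Each point is 1 of the 44 tested members, the vertical axis its log2 difference between the libraries of each group (rivaroxaban 14 minus 15, dabigatran 10 minus 12, untreated 8 minus 9), and the lines are medians. The medians lie at 0.143, -0.0899 and 0.129, so most members lean the same way within a pair.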

How the data were processed

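Poly-A RNA of 6 mouse heart libraries was sequenced after preparation with a directional kit, per the labels' protocols. Build mm10 and the tools STAR, edgeR, Trim Galore, FastQC and bcl2fastq are named in the submitters' processing notes. Which counter and annotation were used is not given in the sources used here. The authors deposited log2 CPM scaled by TMM, per the file headers. A shared floor of -4.04 (0.0609 CPM) draws low genes together and understates their changes. Once it was subtracted, 100% of values under 200 reads were whole within 0.02 reads, which gave the reads per gene; such reads carry no molecular identifiers and may repeat molecules.

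Genes whose log2 CPM averaged 0 or more were tested. Using limma 3.58.1 (R 4.3.3), group means were fitted over the 6 libraries together (eBayes with a mean-variance trend; 3 residual and 7.75 prior degrees of freedom). Tests were two-sided, with Benjamini-Hochberg adjustment over 12981 genes within each of 3 comparisons and a threshold of 0.05. Fold values are antilogs of log2 differences. The script was tested on simulated data.

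Per-library values are given for called members and the 4 of lowest p in each comparison; other genes are named if they are on a list and passed. Per-library values of further members, and the names Tgfbr2 and Smad3, were chosen after their values were seen. Members and lists were chosen with earlier results of these data known. Coordinates and exon lengths come from GENCODE M21 (mm10) by gene ID. Exons of 16 of 45 members overlap another annotated gene. Alternatives were another filter, a pseudocount of 1 CPM, median centring, no trend, only the libraries compared, voom on recovered reads (added after the data were seen) and leaving out each library.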

Additional observations from a re-analysis of the deposited data

How the results depend on the processing

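With 2 libraries a group, calls turned on single libraries. Without the mean-variance trend 0 members were lower under rivaroxaban and 0 under dabigatran. Leaving out 1 library gave 0 to 1 lower and 0 to 1 higher members under rivaroxaban, 0 to 2 lower under dabigatran, and 0 between the drugs; a lone sample was assumed to vary like the other groups. Over all genes, calls under rivaroxaban were 319 as reported, 0 without the trend and 61 to 410 with 1 library left out. Under dabigatran they were 244, 0 and 73 to 270, and between the drugs 10, 0 and 0 to 20, with 6 from the 4 compared libraries alone, 1 by voom and 1 at a mean log2 CPM of at least 2. The single Fmod calls held with the other filters, the pseudocount, the 4 compared libraries alone and voom. Among the members and named list genes, none reversed its direction past the threshold. The causes were not tested. No paired analysis was possible because the groups share no replicate number. The main test kept the deposited log2 unit, and edgeR and DESeq2 were not run on the recovered reads. Cthrc1 had too few reads to pass the filter.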

Other observations

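Outside the matrix, 1 marker each of 2 other cell lists passed under rivaroxaban and not under dabigatran; the difference between the drugs did not pass for either. Cd163, the haemoglobin scavenger receptor of resident macrophages, had 4.95 and 4.91 log2 CPM under rivaroxaban, 4.69 and 4.52 under dabigatran and 4.17 and 4.59 in untreated hearts (rivaroxaban minus untreated 0.55, adjusted p = 0.0432 by limma; rivaroxaban minus dabigatran 0.32, adjusted p = 0.505). The Cd163 call held in 9 of 13 alternatives, and its difference from untreated was 0.34 without untreated replicate 8, with an adjusted p of 0.197. Emcn, the endothelial sialomucin endomucin, had 5.6 and 5.57 log2 CPM under rivaroxaban, 5.91 and 5.91 under dabigatran and 6.02 and 6.00 in untreated hearts (rivaroxaban minus untreated -0.43, adjusted p = 0.00336; rivaroxaban minus dabigatran -0.32, adjusted p = 0.103), and its call held in 11 of 13 alternatives. Of 4 listed atrial cardiomyocyte markers, all tested, none passed, and they summed to 96.8 to 103 CPM under rivaroxaban, 79.3 to 120 CPM under dabigatran and 80.3 to 125 CPM in untreated hearts.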
